A study of Mus musculus with 10 samples.

Results

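Interferon-stimulated genes were examined in the livers of mice that overexpressed apoptosis signal-regulating kinase 1 (ASK1, encoded by Map3k5) in hepatocytes. The group held 44 genes, listed by symbol for their known induction by interferon, with earlier results of these data known, of 54532 genes in the deposited RNA-sequencing table. Bulk liver RNA was measured in 10 mice, all after 7 weeks of high-fat diet (HFD). The 5 ASK1+hep mice carried an ASK1 cDNA behind a floxed stop cassette in the ROSA26 locus together with Cre under the albumin promoter, which is active in hepatocytes. The 5 ASK1f/f control littermates carried the same construct on both alleles without Cre, and both genotypes were on the C57BL/6J background. No chow-fed group and no interferon-treated liver were among the samples, so the levels below are those of the livers as they were, without a deliberate interferon stimulus. In bulk tissue, fewer cells of a type and less RNA per cell cannot be told apart.

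Interferons are secreted warning signals of infection. Type I interferons act through the receptor pair IFNAR1 and IFNAR2 and activate a complex with STAT2 and IRF9, which binds the interferon-stimulated response element (ISRE) upstream of genes such as the Ifit, Oas and Mx families. Type II interferon, interferon gamma, acts through IFNGR1 and IFNGR2 and leads to binding at the gamma-activated site (GAS), and is the main inducer of the guanylate-binding proteins (Gbp) and the immunity-related GTPases (Irg). The division is one of degree, since many genes respond to both. The 44 genes were therefore described as 12 type I core genes (Ifit, Oas and Mx), 9 type II core genes (Gbp and Irg), 4 transcription factors, 3 cytosolic RNA sensors, 6 genes of ubiquitin-like and ADP-ribose modification, and 10 other antiviral effectors.

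The promoters carry the letters to which these factors bind. RefSeq promoters of build GRCm38.p6, each 300 bases from 250 before to 50 after an annotated start, were matched for 31 of the 44 genes, and both strands were searched. An ISRE core, written GAAANNGAAA, was in 20 of the 31 genes, which is 64.5% against 3.99% of all 27018 genes in the table. A GAS, written TTCNNNGAA, was in 9 of the 31, or 29.0% against 9.55% of all genes, and its letters read the same on both strands. The ISRE core was in 6 of 9 matched type I core genes and in all 7 matched type II core genes, whereas the GAS was in 2 and 4 of them. Thus the ISRE core alone did not separate the classes. Such matches are descriptions of the sequence in this window, not measured binding. The 120 bases that end at the RefSeq start are shown 5′ to 3′ on the gene's strand for 4 genes that stand for these layouts, with the matched letters in capitals.
Isg15, chr4:156200819-156200938, minus strand: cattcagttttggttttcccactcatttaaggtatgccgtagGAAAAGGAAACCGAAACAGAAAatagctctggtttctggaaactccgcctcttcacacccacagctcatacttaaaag
Oas1g, chr5:120887614-120887733, minus strand: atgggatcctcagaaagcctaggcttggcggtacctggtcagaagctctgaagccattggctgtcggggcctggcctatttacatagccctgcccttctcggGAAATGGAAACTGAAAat
Gbp2, chr3:142620543-142620662, plus strand: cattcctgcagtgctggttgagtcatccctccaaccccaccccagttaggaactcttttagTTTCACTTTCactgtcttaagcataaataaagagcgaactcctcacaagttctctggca
Irf1, chr11:53769894-53770013, plus strand: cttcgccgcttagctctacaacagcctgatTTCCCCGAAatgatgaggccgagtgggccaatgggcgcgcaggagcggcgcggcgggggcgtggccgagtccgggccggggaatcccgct
In Isg15 the capitals mark 3 overlapping ISRE cores that begin 78, 72 and 66 bases before the start, and in Oas1g 2 overlapping cores that begin 18 and 12 bases before it. Gbp2 has a single ISRE core, read on the other strand, 59 bases before the start. Irf1 has no ISRE core in this window and a GAS 90 bases before the start.

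Values are fragments per kilobase of gene length per unit of library size (FPKM), and fold changes are differences of mean log2(FPKM + 1), ASK1+hep minus ASK1f/f, from limma with p-values adjusted over 13261 genes with enough reads. Libraries held 13367742 to 16163378 reads assigned to genes, and all 44 members passed the filter on low reads, with 10 to 5342 reads for a member in a liver. Albumin, the defining hepatocyte gene, was at 14690 to 25080 FPKM. Map3k5, the overexpressed gene, was at 6.74, 6.88, 5.77, 4.71 and 19.8 FPKM in ASK1f/f replicates 1 to 5 and at 16.4, 11.1, 7.68, 12.4 and 15.2 in ASK1+hep (log2 fold change 0.60, SE 0.32, limma adjusted p = 0.813). The highest Map3k5 of all 10 was in the library labelled ASK1f/f replicate 5, against its label, so results are also given without it. ASK1+hep replicate 3 stood apart from the other livers: it held the highest value of the 10 livers for 26.3% and the lowest for 26.1% of the genes tested.

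None of the 44 interferon-stimulated genes differed between the genotypes at an adjusted p of 0.05, where 0% of all genes tested did (limma, 0 of 13261, lowest adjusted p of a member 0.813). At an unadjusted p under 0.05 in limma there were 2 of 44 members, a smaller share than the 5.77% of all genes tested. Isg15 was the one with a higher mean in ASK1+hep livers, where 3.05% of all genes were on that side of the threshold, and Gbp6 the one with a lower mean, where 2.71% were. Counts of genes with a higher or lower mean refer to the mean of log2(FPKM + 1). It was higher in ASK1+hep for 24 of 44 members, or 54.5%, against 48.1% of all genes, but for 15 of 44 when libraries were scaled by all reads. Under that scaling the share of genes at an unadjusted p under 0.05 that were higher fell from 52.9% to 31.5%. The groups of livers did not overlap for 0 members and for 0.86% of all genes. The median log2 fold change was 0.023 for the members and -0.0065 for all genes, with a range over the members from -0.39 for Ifih1 to 0.50 for Isg15. Without the library labelled ASK1f/f replicate 5, 26 members had the higher mean in ASK1+hep and the median was 0.035. The members spread more between livers of one genotype than genes did in general, with a median within-genotype SD of 0.290 against 0.195 on the log2 scale.

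**Figure D1:**
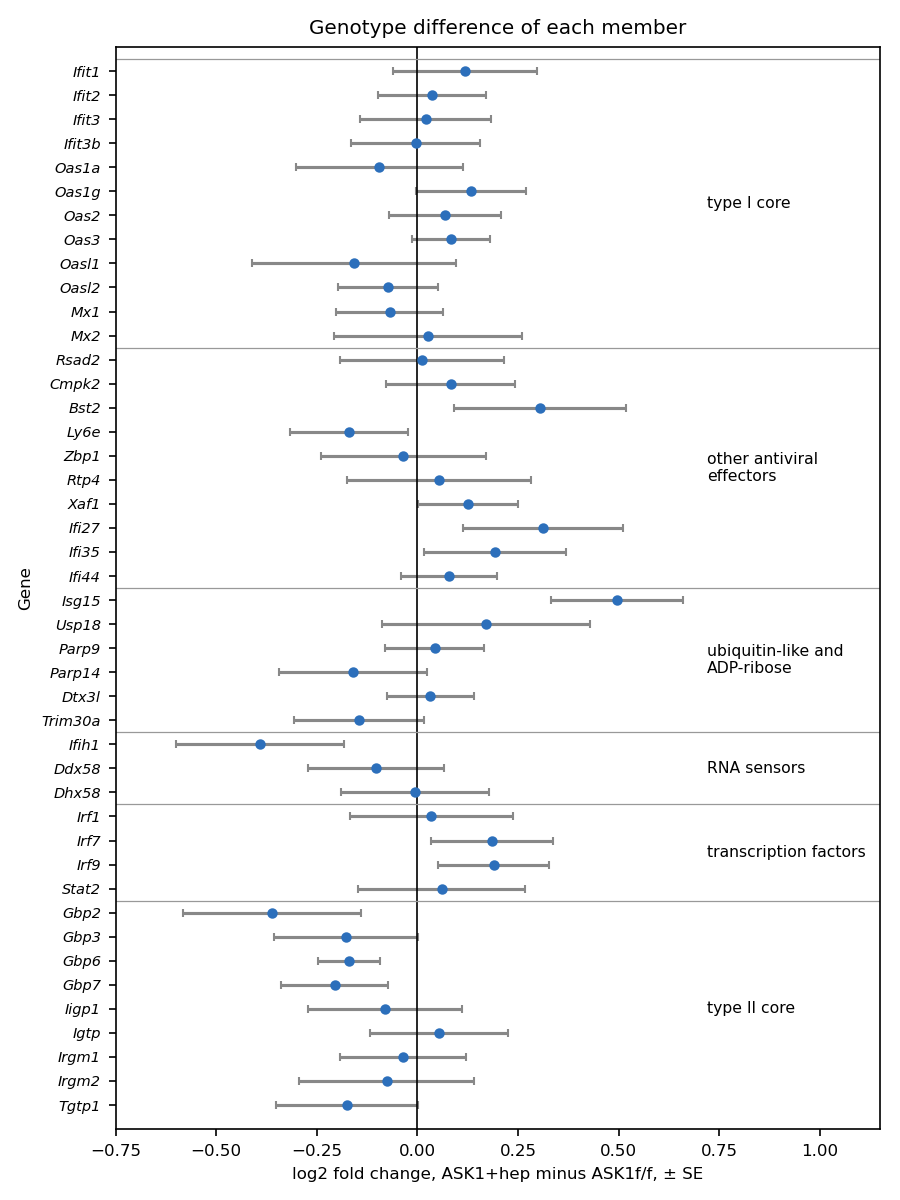
Log2 fold change (ASK1+hep minus ASK1f/f, x axis) of each of the 44 genes (y axis), grouped by role, with SE bars from limma (5 livers per genotype). Isg15 lies farthest to the right at 0.50 and Ifih1 farthest to the left at -0.39, 8 of the 9 type II core genes lie left of 0, and no gene passed the adjusted threshold.

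Isg15 encodes a ubiquitin-like protein that is attached to other proteins during the antiviral response. Its level in ASK1f/f replicates 1 to 5 was 10.2, 11.3, 16.8, 12.6 and 12.4 FPKM, and in the same order 19.6, 22.3, 17.8, 19.7 and 12.4 FPKM in ASK1+hep. Thus 4 of the 5 ASK1+hep livers were above every ASK1f/f liver, and the last lay within the control range. The means were 12.7 ± 2.50 and 18.4 ± 3.71 FPKM (SD, n = 5 each), a ratio of 1.45. In limma the log2 fold change was 0.50 with an SE of 0.16 and a 95% interval from 0.14 to 0.85 (unadjusted p = 0.0109, adjusted p = 0.813). Leaving out 1 liver at a time kept the value between 0.42 and 0.62, and it was 0.49 without the library labelled ASK1f/f replicate 5. Isg15 had the shortest gene length used for FPKM of the members, at 756 bases. An alternative chosen after the data were seen corrected each liver for its relation between level and gene length. With it the Isg15 log2 fold change was 0.37 (limma, adjusted p = 0.803).

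The other genes of the ubiquitin-like and ADP-ribose group had smaller differences than Isg15: 4 of all 6 had the higher mean in ASK1+hep, but 2 when libraries were scaled by all reads. Usp18 removes ISG15 from proteins, and its means were 6.39 ± 2.36 and 7.40 ± 2.71 FPKM in ASK1f/f and ASK1+hep (SD, n = 5). Parp9 and Dtx3l, whose proteins act as a partner pair in ADP-ribosylation and ubiquitination, had means of 11.9 ± 0.836 and 12.4 ± 2.12 FPKM and of 9.09 ± 0.299 and 9.40 ± 1.52 FPKM, respectively. The annotated genes of this pair overlap on chromosome 16, so reads between them are uncertain. Trim30a, a ubiquitin ligase, was at 1.37, 1.72, 2.26, 1.90 and 2.28 FPKM in ASK1f/f and at 2.48, 1.43, 1.20, 1.02 and 2.21 FPKM in ASK1+hep. Its groups overlapped, with both the highest and the lowest liver among the ASK1+hep mice (log2 fold change -0.145, limma adjusted p = 0.847). Parp14 had the longest gene length used for FPKM of the members, at 9306 bases, and means of 4.48 ± 0.219 and 4.07 ± 1.36 FPKM.

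The type I core was balanced between the genotypes. Its 12 log2 fold changes ran from -0.16 for Oasl1 to 0.13 for Oas1g, with 7 above 0, 5 below and a median of 0.023, but with 5 above and a median of -0.035 when libraries were scaled by all reads. The median was -0.074 without ASK1+hep replicate 1, and -0.119 among the 8 mice whose tags begin with CC, which leaves out replicate 1 of both genotypes. Ifit1 encodes a protein that binds foreign viral RNA ends. It was at 4.38, 4.30, 6.72, 5.15 and 4.33 FPKM in ASK1f/f and at 8.94, 5.07, 4.51, 4.18 and 5.30 FPKM in ASK1+hep. Only ASK1+hep replicate 1 lay above the control range, and the log2 fold change was 0.12 with an SE of 0.18 (limma, adjusted p = 0.885). Ifit3, the most abundant of the Ifit genes measured, was at 9.16 ± 1.70 and 9.37 ± 2.27 FPKM, but Ifit3 and Ifit3b are close copies whose reads may be shared.

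The Oas family includes enzymes that make the 2′-5′ oligoadenylates that activate RNase L. Oas1g was at 0.819, 0.651, 0.714, 0.814 and 1.25 FPKM in ASK1f/f and at 1.43, 1.39, 0.651, 1.19 and 0.589 FPKM in ASK1+hep. The upper values thus came from 3 ASK1+hep livers and from the library labelled ASK1f/f replicate 5, and the groups overlapped (log2 fold change 0.13, 95% interval -0.17 to 0.43, limma adjusted p = 0.842). Oas3 was at 0.212, 0.189, 0.265, 0.149 and 0.230 FPKM in ASK1f/f and at 0.655, 0.317, 0.123, 0.0958 and 0.277 FPKM in ASK1+hep. ASK1+hep livers were both the 3 highest and the 2 lowest of the 10 for Oas3, at a depth of 10 to 79 reads. Oasl1 was the most abundant Oas gene per length, at 7.40 ± 1.41 and 6.99 ± 3.23 FPKM. Mx1 and Mx2 belong to the dynamin-like GTPase family, and their means were 0.619 ± 0.197 and 0.561 ± 0.317 FPKM and 2.51 ± 0.840 and 2.65 ± 1.17 FPKM.

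Most type II core genes had lower mean log2 values in ASK1+hep, and none passed the test (limma, 1 of 9 at an unadjusted p under 0.05, against 5.77% of all genes). Of the 9 genes, 8 had a lower mean log2 value in ASK1+hep and 1, or 11.1%, a higher one, against 48.1% of all genes. The median log2 fold change was -0.17, or -0.19 when libraries were scaled by all reads. Both the size and the direction rested partly on a single liver. Without ASK1+hep replicate 3 the median was -0.054, whereas it was -0.14 without the library labelled ASK1f/f replicate 5. Leaving out ASK1+hep replicate 3 turned Iigp1, Irgm1 and Irgm2 to 0.11, 0.119 and 0.156, while the Gbp genes and Tgtp1 stayed negative. Gbp6 encodes a guanylate-binding protein, one of the GTPases that attack the membranes around intracellular pathogens. It was at 0.503, 0.373, 0.640, 0.486 and 0.589 FPKM in ASK1f/f and at 0.492, 0.195, 0.219, 0.398 and 0.451 FPKM in ASK1+hep. Only ASK1+hep replicates 2 and 3 were below all controls, and none was above them. The log2 fold change was -0.17 with an SE of 0.077 (limma, unadjusted p = 0.0469, adjusted p = 0.813), and the unadjusted p was 0.111 without ASK1+hep replicate 3 and 0.0931 without the library labelled ASK1f/f replicate 5. Gbp6 has close copies such as Gbp10, so reads may be shared among them.

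Gbp2, which lies on chromosome 3 beside Gbp3 and Gbp7, was at 1.24, 1.87, 2.58, 2.01 and 2.51 FPKM in ASK1f/f and at 1.84, 0.369, 0.952, 1.97 and 2.08 FPKM in ASK1+hep. ASK1+hep replicates 2 and 3 were again the lowest, and the other 3 lay inside the control range (log2 fold change -0.36, 95% interval -0.85 to 0.125, limma adjusted p = 0.813). Leaving out ASK1+hep replicate 2 took the Gbp2 value to -0.169. The Irg genes encode GTPases that act at the same membranes, and 4 of the 5 lay between -0.080 and 0.053. The other, Tgtp1, was at 0.940 ± 0.417 and 0.719 ± 0.405 FPKM (log2 fold change -0.175), and its reads may be shared with its close copy Tgtp2. Iigp1 was the most abundant core gene of either class per length, at 94.7 ± 5.65 FPKM in the ASK1f/f mice and 92.8 ± 26.1 FPKM in the ASK1+hep mice. Irgm1 was at 9.24 ± 0.831 and 9.18 ± 2.09 FPKM, and Irgm2 at 11.6 ± 0.556 and 11.5 ± 3.88 FPKM. Igtp, whose annotated gene overlaps that of Irgm2 on chromosome 11, was the one type II core gene with the higher mean in ASK1+hep, at 18.1 ± 2.53 and 19.2 ± 5.46 FPKM, although this turned to a log2 fold change of -0.022 when libraries were scaled by all reads.

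Markers of macrophages and of endothelial cells were also lower in ASK1+hep on the log2 scale. All 9 Kupffer cell and macrophage markers had a lower mean log2 value (median log2 fold change -0.21), and 0 passed the test in limma, also at an unadjusted p under 0.05. Of 6 endothelial markers, 5 were lower (median -0.18), and all 6 when libraries were scaled by all reads. The summed macrophage level ran from 132.1 to 204.6 FPKM in the ASK1f/f mice and from 83.07 to 205.3 FPKM in ASK1+hep, and the endothelial one from 26.4 to 38.8 FPKM and from 21.7 to 38.6 FPKM. ASK1+hep replicates 2 and 3, the lowest livers for Gbp2 and Gbp6, had the lowest macrophage sums, at 83.07 and 101.0 FPKM, and replicate 2 also the lowest endothelial sum. The Irg genes were mixed in replicate 2, where Iigp1 was at 101.6, Igtp at 20.3 and Irgm1 at 9.89 FPKM, each above its control mean. Irgm2 at 10.6 and Tgtp1 at 0.483 FPKM were each below theirs. The part of these cells in the Gbp values was not tested. Other cell types did not share this direction. Of 11 T and NK cell markers, 2 passed the filter on low reads, and these 2 had higher mean log2 values in ASK1+hep (median 0.117). Of 4 B cell markers, 3 passed the filter and these 3 were higher (median 0.106). Of 6 hepatocyte markers, 4 were higher and 2 lower (median 0.255). Of 3 neutrophil markers tested, 1 was higher and 2 lower, and the 1 plasmacytoid dendritic cell marker tested was higher. In limma 0 of these passed the adjusted threshold.

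The 4 transcription factors all had higher mean log2 values in ASK1+hep (median log2 fold change 0.12), but scaling by all reads turned Irf1 and Stat2 to -0.0342 and -0.0145. Irf9, the DNA-binding partner of STAT2, was at 6.48, 9.35, 7.12, 7.89 and 8.23 FPKM in ASK1f/f and at 9.51, 11.96, 6.95, 8.75 and 8.44 FPKM in ASK1+hep. ASK1+hep replicates 1 and 2 lay above the control range (log2 fold change 0.19, SE 0.14, limma adjusted p = 0.816), and the value was 0.0959 without replicate 2 and 0.306 with quality weights in limma-voom. The factor that amplifies type I interferon transcription, Irf7, measured 13.3, 9.704, 11.5, 11.7 and 15.99 FPKM in ASK1f/f and at 14.96, 17.5, 15.2, 13.2 and 10.5 FPKM in ASK1+hep. Only ASK1+hep replicate 2 exceeded the highest control for Irf7 (log2 fold change 0.19, SE 0.15, limma adjusted p = 0.818).

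Stat2 was at 13.8, 20.4, 11.9, 12.99 and 15.2 FPKM in ASK1f/f and at 14.1, 24.5, 16.2, 14.6 and 9.98 FPKM in ASK1+hep. Its highest and lowest livers were both ASK1+hep, replicates 2 and 5 (log2 fold change 0.060, limma adjusted p = 0.958). Irf1, a factor induced early by interferon gamma and shown above with its GAS, was at 5.32, 7.19, 4.73, 5.57 and 10.1 FPKM in ASK1f/f and at 5.02, 6.56, 5.93, 10.1 and 5.99 FPKM in ASK1+hep. A single liver of each genotype was high, the library labelled ASK1f/f replicate 5 and ASK1+hep replicate 4, and the rest overlapped (log2 fold change 0.0345, limma adjusted p = 0.975).

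**Figure D2:**
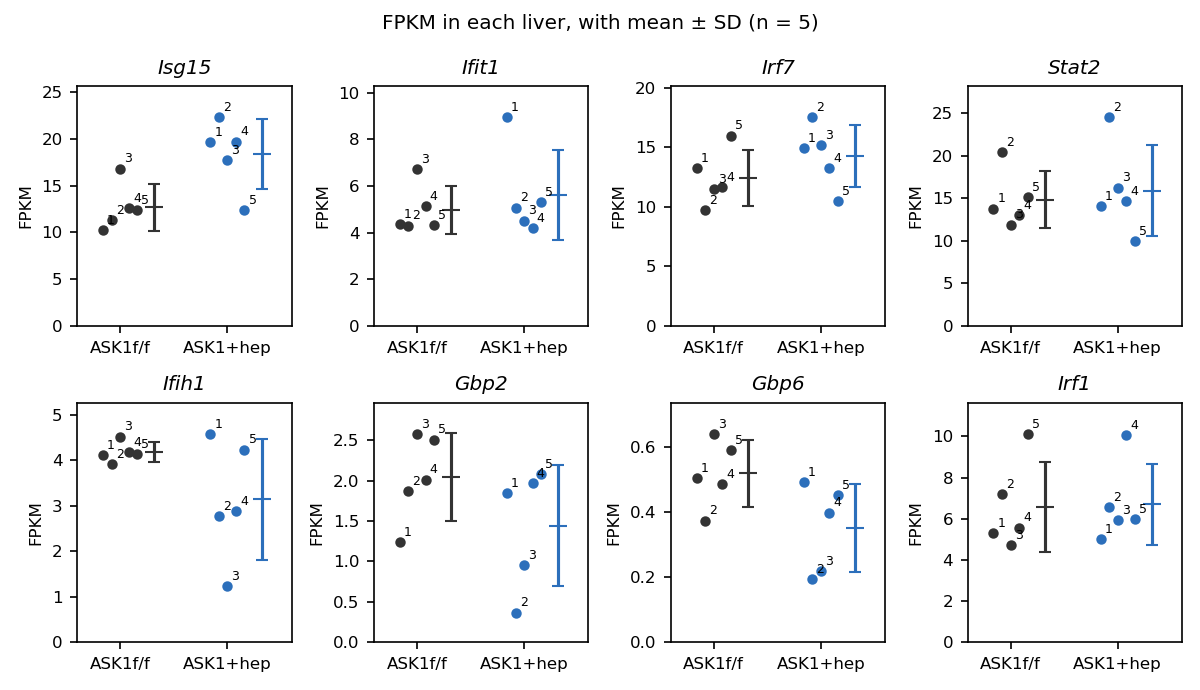
FPKM (y axis, from 0) of 8 members in each liver, numbered by replicate (ASK1f/f black, ASK1+hep blue), with mean ± SD beside the points (n = 5). In Isg15, 4 of 5 ASK1+hep livers sit above all ASK1f/f livers, in Ifit1 ASK1+hep replicate 1 stands alone at 8.94 FPKM, and the groups overlap in every gene drawn.

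The RNA sensors recognise viral RNA in the cytosol. All 3 had lower mean log2 values in ASK1+hep, whereas 48.1% of all genes tested had higher ones, and 1 of the 3, Dhx58, was close to 0. Ifih1, which encodes MDA5, was at 4.12, 3.92, 4.52, 4.18 and 4.14 FPKM in ASK1f/f and at 4.58, 2.77, 1.24, 2.88 and 4.23 FPKM in ASK1+hep. The 5 controls lay close together, ASK1+hep replicates 2, 3 and 4 lay below them and ASK1+hep replicate 1 above them (log2 fold change -0.39, SE 0.21, limma adjusted p = 0.813). Without ASK1+hep replicate 3 the value was -0.19. Ddx58, which encodes RIG-I, was at 3.80, 2.95, 3.89, 4.21 and 3.65 FPKM in ASK1f/f and at 4.51, 3.51, 1.79, 3.49 and 4.04 FPKM in ASK1+hep. Here only replicate 3 was below the control range (log2 fold change -0.10, limma adjusted p = 0.893), and the value was 0.0565 without it.

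Among the other antiviral effectors, 8 of 10 had the higher mean in ASK1+hep (median log2 fold change 0.080), and 6 of 10 when libraries were scaled by all reads. Ifi27 encodes a small mitochondrial membrane protein and Bst2 encodes tetherin, which holds budding virus at the cell surface. Ifi27 was at 85.9, 54.6, 66.4, 75.2 and 119.1 FPKM in ASK1f/f and at 103.3, 110.7, 103.6, 99.6 and 70.5 FPKM in ASK1+hep. Thus 4 ASK1+hep livers were above every control except the library labelled ASK1f/f replicate 5, which was the highest of all. The log2 fold change was 0.31 with an SE of 0.20 (limma, adjusted p = 0.813) and 0.465 without that library (unadjusted p = 0.0203, adjusted p = 0.741), whereas it was 0.188 without ASK1f/f replicate 2. Bst2, the most abundant member per length, was at 207.4, 189.2, 189.4, 204.7 and 305.9 FPKM in ASK1f/f and at 234.5, 292.0, 386.2, 291.9 and 173.6 FPKM in ASK1+hep. Here 4 ASK1+hep livers were above the controls other than the library labelled ASK1f/f replicate 5, and ASK1+hep replicate 3 was above that library too. ASK1+hep replicate 5 was the lowest of the 10 (log2 fold change 0.30, SE 0.21, limma adjusted p = 0.813). The Bst2 value was 0.170 without ASK1+hep replicate 3, 0.458 without ASK1+hep replicate 5 and 0.189 with the length correction. Rsad2, which encodes viperin, and its neighbour Cmpk2 were at 1.94 ± 0.403 and 2.08 ± 1.00 FPKM and at 1.21 ± 0.0916 and 1.40 ± 0.629 FPKM.

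The largest departures among the members belonged to individual livers. ASK1+hep replicate 1 held the highest value of the 10 livers for 24 of the 44 members, or 54.5%, and for 5.43% of all genes tested. These 24 included 10 of the 12 type I core genes and 3 of the 9 type II core genes. ASK1+hep replicate 3 held the lowest value for 21 members, or 47.7%, against 26.1% of all genes, and these included 5 type I and 6 type II core genes. In all, ASK1+hep livers held the highest value for 81.8% and the lowest for 79.5% of the members, against 64.7% and 67.2% of all genes tested. Without ASK1+hep replicate 1 the number of members with the higher mean in ASK1+hep was 14 of 44, and without ASK1+hep replicate 3 it was 35 of 44.

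**Figure D3:**
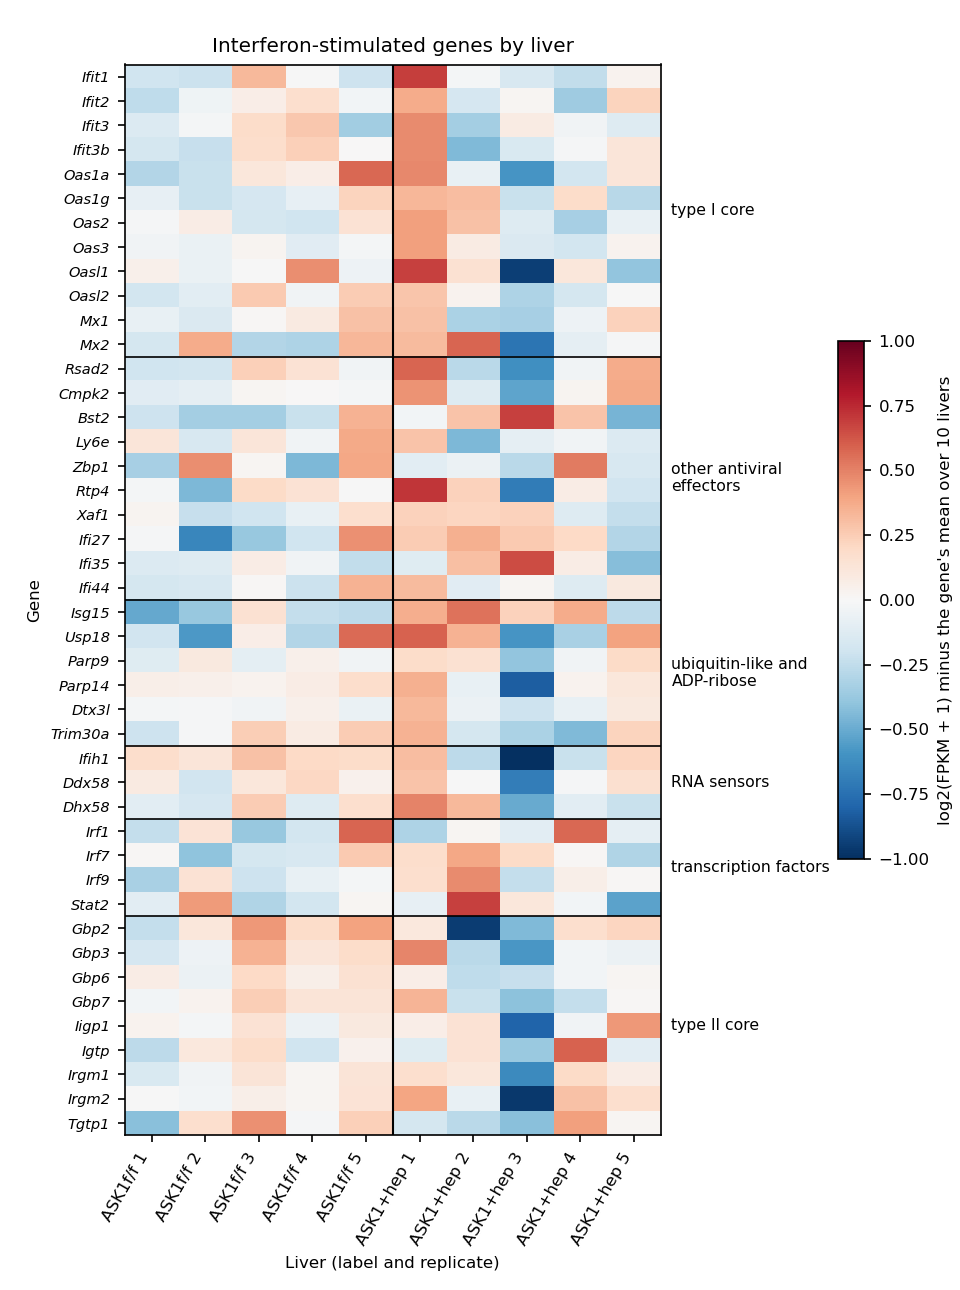
Log2(FPKM + 1) of each of the 44 members (rows, grouped by role) in each liver (columns), less the gene's mean over the 10 livers, in red where above and blue where below, with colours saturated at 1 and -1. The column of ASK1+hep replicate 1 is red over most of the type I core, and that of ASK1+hep replicate 3 is blue over the RNA sensors and most of the type II core but red at Bst2 and Ifi35.

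The contrast between the classes can be read within each liver from the mean of the centred log2 values. For the type I core this mean was -0.131, -0.075, 0.043, 0.047 and 0.098 in ASK1f/f replicates 1 to 5 and 0.436, 0.0084, -0.302, -0.114 and -0.010 in ASK1+hep replicates 1 to 5. For the type II core it was -0.129, 0.027, 0.246, 0.030 and 0.168 in ASK1f/f and 0.148, -0.184, -0.539, 0.146 and 0.088 in ASK1+hep. The median liver for type II was thus higher in ASK1+hep, at 0.088 against 0.030, although the mean over livers was lower, at -0.068 against 0.068. The SD over livers was 0.271 in ASK1+hep and 0.0952 in ASK1f/f for type I, and 0.297 and 0.145 for type II (n = 5 each). The type I mean less the type II mean was -0.203 to 0.017 in ASK1f/f. In ASK1+hep it was 0.288, 0.193 and 0.237 in replicates 1 to 3, above all controls, and -0.260 and -0.098 in replicates 4 and 5. Replicate 1 came to its difference through a high type I mean. In replicate 2 the type II mean was low, with each Gbp member below every control but the Irg genes mixed. In replicate 3 both means were the lowest of the 10 livers, with type II at -0.539 and type I at -0.302.

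**Figure D4:**
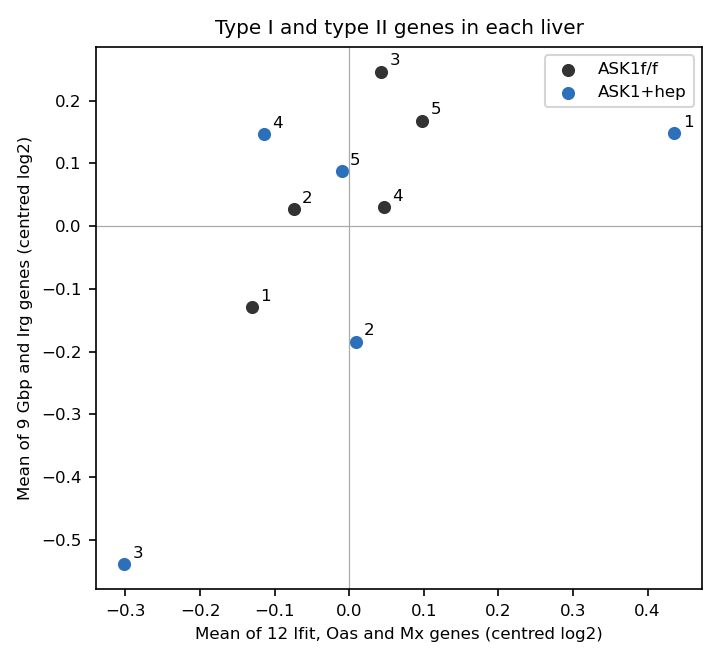
Mean centred log2 value of the 12 type I core genes (x axis) against that of the 9 type II core genes (y axis) in each liver, numbered by replicate (ASK1f/f black, ASK1+hep blue). The ASK1f/f livers lie within -0.131 to 0.098 on the x axis, while ASK1+hep replicate 1 lies far right at 0.436 and ASK1+hep replicate 3 at the lower left at -0.302 and -0.539.

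Genes of one class tended to vary together over the livers. Pearson correlations of deviations from the genotype mean, given as descriptions over 10 livers that share their libraries, had a median of 0.529 over 66 pairs within the type I core, 0.569 over 36 pairs within the type II core and 0.386 over 108 pairs between them. The median over all gene pairs was -0.0005. The Ifit genes had a median of 0.735 and the Gbp genes 0.779, whereas the Irg median of 0.640 was 0.210 without ASK1+hep replicate 3. Without that liver the medians within type I, within type II and between them were 0.440, 0.408 and 0.229. The closest pairs were Ifih1 with Cmpk2 at 0.98, Irgm2 with Parp14 at 0.977, and Rsad2 with Cmpk2 at 0.96. Correlations of the transcription factors with the type I core had a median of -0.0083 over 48 pairs. The lowest correlations were those of Ifi35, down to -0.873 with Cmpk2.

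Gene length moved with the fold changes, in the members and in genes generally. Gene length here is the length used for FPKM, not the span on the chromosome. Over the 13261 genes the log2 fold change had a Spearman correlation of -0.240 with gene length, and over the 44 members it was -0.286, both across genes, which are not independent replicates. Of genes up to 2438 bases, 63.4% had the higher mean in ASK1+hep, as did 8 of 10 members of that length, among them Isg15, Bst2, Ifi27 and Ifi35. Of genes of 6482 bases or more, 34.5% did, as did 1 of 4 members, namely Oas3 and not Ifih1, Ddx58 or Parp14. The livers differed in this, with correlations between deviation and gene length from -0.329 to 0.329 in ASK1+hep, negative in replicates 2, 3 and 4. With the length correction, 23 of 44 members had the higher mean, the type I median was -0.0061 and the type II median was -0.14.

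**Figure D5:**
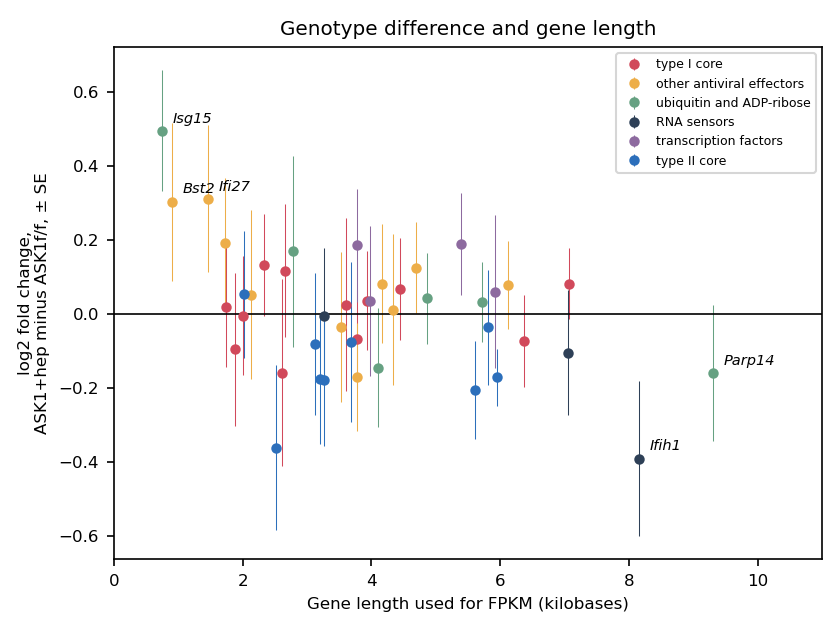
Log2 fold change with SE (y axis) against the gene length used for FPKM (x axis, kilobases) for the 44 members, coloured by role. Isg15, Bst2 and Ifi27, at 756, 903 and 1467 bases, have the highest values in ASK1+hep, and Ifih1, at 8165 bases, has the lowest.

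The interferons themselves were at the limit of detection. Of 21 ligand genes, 20 had no read in any liver, and the other, Ifnk, had at most 0.323 FPKM. A count of 0 in a library of this depth does not show that a gene is off in every cell. The receptors for type I and type II interferon were present in all livers. Ifnar1 was at 5.47 ± 0.399 and 5.52 ± 0.755 FPKM in ASK1f/f and ASK1+hep, Ifnar2 at 11.7 ± 0.431 and 11.3 ± 1.94 FPKM, Ifngr1 at 5.19 ± 0.407 and 5.05 ± 1.00 FPKM, and Ifngr2 at 6.18 ± 1.13 and 6.15 ± 0.977 FPKM. The receptor for interferon lambda, Ifnlr1, had 0 to 4 reads per liver.

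Downstream of the receptors, 13 of 14 genes for kinases, factors and brakes were tested and 0 passed the threshold in limma, with 3 higher and 10 lower in mean (2 and 11 when scaled by all reads). Irf5, a factor prominent in macrophages, was at 6.19, 4.11, 6.49, 6.401 and 4.38 FPKM in ASK1f/f and at 4.12, 2.10, 2.42, 5.32 and 3.47 FPKM in ASK1+hep. Its 3 lowest livers were ASK1+hep replicates 2, 3 and 5 (log2 fold change -0.57, SE 0.20, limma unadjusted p = 0.0153, adjusted p = 0.813). Socs1, the feedback brake, had 3 to 14 reads per liver and was not tested.

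Of 42 further interferon-induced genes outside the 44, 38 were tested and 20 had the higher mean in ASK1+hep (median log2 fold change 0.010), but 15 when libraries were scaled by all reads. Trim12c was at 3.93 ± 0.330 and 4.91 ± 0.583 FPKM, with 4 of 5 ASK1+hep livers above every control (log2 fold change 0.26, limma unadjusted p = 0.0258, adjusted p = 0.813). Gbp10 was at 1.18 ± 0.343 and 0.645 ± 0.386 FPKM, with 3 ASK1+hep livers below every control (log2 fold change -0.425, limma unadjusted p = 0.0255, adjusted p = 0.813). The chemokines Cxcl9 and Cxcl10, typical targets of interferon gamma, were at 3.18 ± 1.05 and 3.40 ± 1.28 FPKM and at 1.29 ± 0.333 and 1.38 ± 0.423 FPKM. The third chemokine of that kind, Cxcl11, was at 0.709 ± 0.0867 and 0.646 ± 0.280 FPKM. Of 13 genes of nucleic acid sensing, 11 were tested and 0 passed the threshold in limma, also at an unadjusted p under 0.05, with 5 higher and 6 lower in mean (2 and 9 when scaled by all reads).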

How the data were processed

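Bulk liver RNA of 10 mice was sequenced, 5 per genotype, with groups taken from the genotype label. The authors trimmed reads with fastp, aligned them with HISAT2, counted them with featureCounts and deposited FPKM per gene in 1 table (tool versions and the annotation release were not given in the sources used here). Whether reads were counted by strand is not given either, so genes that overlap cannot be told apart. GENCODE M21 (GRCm38) holds 54409 of these genes, 98.3% at the same positions. FPKM times length gave whole reads to within 0.000187 reads. Genes with at least 10 reads in at least 5 livers and 15 in all entered limma 3.58.1 (R 4.3.3, trend) on log2(FPKM + 1), without a replicate block, with Benjamini-Hochberg adjustment over 13261 genes. On that scale, changes of low genes are understated. Replicates are separate mice. On simulated data, 99.5% of 200 genes changed by a log2 fold change of 2 were recovered, with 219 calls, of which 9.13% were false. That change is larger than those of the members (-0.39 to 0.50), so recovery of changes of their size was not measured.

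Members and lists were chosen with earlier results of these data known. Values per liver were given for the 2 lowest p-values of each list and for Isg15, Irf7, Stat2, Irf1 and Gbp2. Ifit1 was added after its values were seen. Alternatives were other filters, pseudocounts, limma-voom, scaling, a block, tag prefix, and each liver left out. The 95% intervals are for the difference of means, from the SE that limma moderates over genes, and are not ranges of single livers. Some items are not reported here.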

Additional observations from a re-analysis of the deposited data

Results flagged for a closer look

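In each genotype of 5 livers, a gene was listed when its highest or lowest liver lay far from the others by Dixon's gap ratio, which chance gives in about 1 of 20 groups; here 8 of 88 did. Ifit1 was at 8.94 FPKM in ASK1+hep replicate 1, the highest of its group with a gap ratio of 0.764. Zbp1, a sensor of Z-form nucleic acid, was at 3.93 FPKM in ASK1+hep replicate 4, also the highest (0.784). Irgm1 was at 5.50 FPKM in ASK1+hep replicate 3 (0.825) and Ifi27 at 70.5 FPKM in ASK1+hep replicate 5 (0.725), each the lowest of its group. Of the ASK1f/f livers, the library labelled replicate 5, which also had the highest Map3k5, was the highest for Bst2 at 305.9 FPKM (0.844), Parp14 at 4.86 FPKM (0.759) and Oas1g at 1.25 FPKM (0.720). Oasl1 was at 9.88 FPKM in ASK1f/f replicate 4 (0.816), the highest of its group.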

How the results depend on the processing

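No member passed the adjusted threshold under any of 20 alternatives (limma, lowest adjusted p 0.382). Of all genes, 1 passed with quality weights in limma-voom and 1 without ASK1+hep replicate 5, where 0 to 1 passed over the fits that left out a liver and 553 to 1722 genes had an unadjusted p under 0.05, against 1222 with no filter and 765 as reported. Members at an unadjusted p under 0.05 numbered 1 to 4. Members with the higher mean in ASK1+hep numbered 15 when scaled by all reads, 12 among the 8 mice whose tag begins with CC, and 14 to 35 with 1 liver left out (14 without ASK1+hep replicate 1, 35 without ASK1+hep replicate 3, 18 without ASK1f/f replicate 1, against 24). The type I median was -0.119 with the CC mice and -0.0738 to 0.0503 with 1 liver left out. The type II median was -0.258 on log2(FPKM + 0.1), -0.243 with limma-voom and -0.212 with the CC mice. With quality weights it was -0.081, and with 1 liver left out it was -0.197 to -0.0544. Gbp2, at -0.634 on log2(FPKM + 0.1) and -0.644 with limma-voom, was there below Ifih1, at -0.524 and -0.536. Deviations of same-numbered livers from their group means were weakly but positively correlated in all 5 pairs (0.022 to 0.174, 2 of 5 over 0.1). The mean correlation was 0.108 against -0.0277 for different numbers, and 4 of 5 controls were closest to their own number. The tags of the mice were consecutive in 4 of 5 such pairs, but no label says that a number marks a shared litter or day, so the comparison was made without pairing. With a replicate block 24 members again had the higher mean, 2 had an unadjusted p under 0.05 and 0 passed.

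Of 880 values of a member under an alternative, 86 changed sign, all from values that had not passed the test, and 18 members never did. The cause was not tested. On log2(FPKM + 0.1), Rsad2 was -0.0192, and with limma-voom Ifit3b was 0.00662. With quality weights, Ifit2 was -0.0925, Ifit3 -0.0222, Oas1a 0.0418, Iigp1 0.0168, Irgm1 0.0988, Irgm2 0.111, Dhx58 0.161 and Zbp1 0.284. Scaled by all reads, which moved the median of all genes to -0.0525, Ifit3 was -0.0505, Mx2 -0.0223, Igtp -0.0217, Irf1 -0.0342, Stat2 -0.0145, Parp9 -0.0296, Dtx3l -0.0386, Rsad2 -0.0312 and Rtp4 -0.0147. With the CC mice, Ifit1 was -0.0743, Ifit2 -0.111, Ifit3 -0.127, Oas2 -0.0209, Oas3 -0.0091, Mx2 -0.09, Parp9 -0.0244, Dtx3l -0.0459, Rsad2 -0.178, Cmpk2 -0.0384, Rtp4 -0.118 and Ifi44 -0.0257. With the length correction Ifit3 was -0.045. With 1 liver left out, the values ran over -0.0523 to 0.131 for Ifit2, -0.0952 to 0.107 for Ifit3, -0.117 to 0.212 for Mx2, -0.0881 to 0.153 for Igtp, -0.104 to 0.184 for Irf1, -0.131 to 0.166 for Rsad2, -0.169 to 0.0779 for Zbp1, -0.119 to 0.235 for Rtp4, -0.123 to 0.106 for Ifit3b, -0.102 to 0.202 for Stat2, -0.131 to 0.119 for Dhx58, -0.227 to 0.0419 for Oas1a, -0.0401 to 0.214 for Ifit1, -0.0265 to 0.159 for Oas2, -0.0102 to 0.139 for Oas3, -0.0452 to 0.0884 for Dtx3l, -0.0196 to 0.224 for Cmpk2, -0.15 to 0.0063 for Mx1, -0.349 to 0.0587 for Oasl1, -0.197 to 0.11 for Iigp1, -0.0878 to 0.119 for Irgm1, -0.184 to 0.156 for Irgm2, -0.189 to 0.0565 for Ddx58 and -0.269 to 0.0272 for Parp14.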
